A study of Saccharomyces cerevisiae with 8 samples.

Results

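Brief arrest of translation and lasting loss of the decay helicase UPF1 were set side by side in budding yeast, by comparing wild-type cells given cycloheximide (WT CHX) with upf1 cells given only solvent (upf1 DMSO). The comparison rests on 4 of the 8 libraries of the study, 2 biological replicates a group, chosen by their labels. All cells were BY4741, MATa his3Δ1 leu2Δ0 met15Δ0 ura3Δ0, and the mutant also carried upf1::kanMX4. Cultures in YPD at 30 °C were taken at an OD600 of 0.5 and received 100 µg/ml cycloheximide, or the same volume of DMSO, for 15 min. Of each extract 1.5 µg total RNA with 3 µl spike-in mix was incubated at 30 °C for 1 h with Terminator exonuclease (1 unit), then sequenced in stranded libraries. The other 4 libraries, WT DMSO and upf1 CHX, entered the fit and show on which side the 2 states they lack would place an RNA.

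Nonsense-mediated decay (NMD) is a surveillance pathway in which ribosomes that stop early recruit UPF1, after which the RNA is decapped and degraded from its 5′ end. Because the pathway reads the RNA through translation, a drug that freezes ribosomes also stops NMD, but it acts on every translated RNA and within minutes, while a deleted UPF1 leaves translation running and lets the cell adapt over generations. Terminator removes RNA that ends in a 5′ monophosphate, and a cap protects against it. For an RNA that can be capped, a higher value here may therefore be more RNA or a larger capped share. These cannot be told apart because undigested libraries were not analysed here.

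Values are scaled reads per kb. The deposited density was multiplied by 1000, and each library was then set to a common median of the protein-coding features with systematic Y names (ORFs), 16.9 scaled reads per kb. The second step multiplied WT DMSO by 2.43 and 2.02 and WT CHX by 0.667 and 0.849. The factors were 1.15 and 1.48 for upf1 DMSO and 0.447 and 0.476 for upf1 CHX. Where WT DMSO and upf1 CHX lay beside the pair compared is given on this scale. Such placings can change on the deposited one. Differences are log2 of WT CHX minus upf1 DMSO ± SE, positive where WT CHX was higher. They were taken after 2 scaled reads per kb had been added to each value, so that folds of weakly read genes come out too small. A call is an adjusted p under 0.05 by limma with Benjamini-Hochberg adjustment over 10392 features. The 4 libraries compared held 2681755 and 4689425 reads (WT CHX) and 2950641 and 2170572 reads (upf1 DMSO), with a median of 25, 35, 22 and 14 reads per ORF. The WT DMSO libraries were shallower, with 2395120 and 1311200 reads and a median of 9 and 6 reads per ORF.

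Relative to the ORF median, more RNAs stood higher with the translation block than with loss of UPF1. Of 5974 ORFs tested, 272 were higher in WT CHX (4.55%) and 107 were higher in upf1 DMSO (1.79%). The middle of the ORFs hardly differed, with a median of 0.03 and quartiles of -0.36 and 0.46. Over all 10392 features, non-coding ones included, 503 were higher in WT CHX (4.84%) and 155 in upf1 DMSO (1.49%). This split depends on the scale. On the deposited scale, where the ORF median itself differed by 0.70, the counts were 3165 and 45, and with quantile normalization they were 516 and 452. Without the first WT CHX library 24 features were higher and 0 lower by limma, and without the second 25 and 1, in fits that assume that the lone library varies like the other groups.

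**Figure D1:**
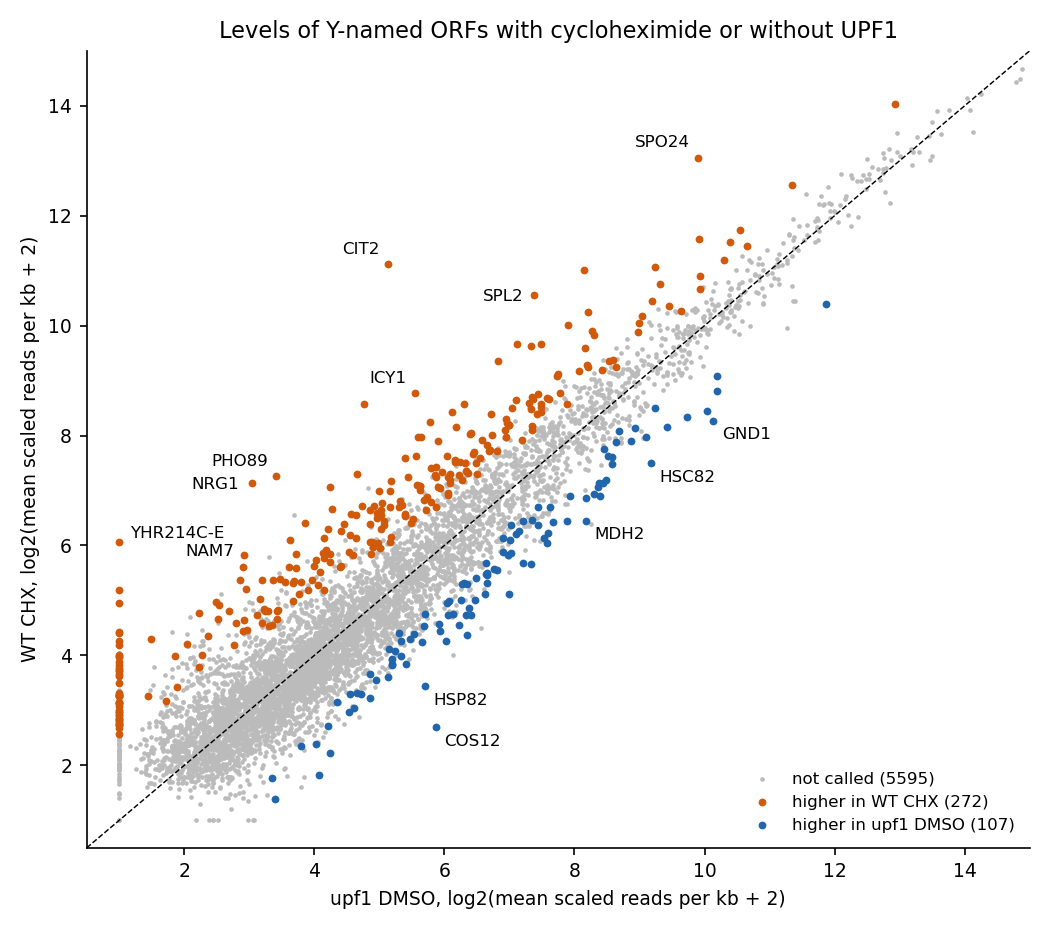
Mean level of each ORF in upf1 DMSO (x axis) and WT CHX (y axis), both as log2 of scaled reads per kb plus 2; each point is 1 of 5974 ORFs and the dashed line marks equal levels. The 272 ORFs called higher in WT CHX lie above the line, with CIT2 farthest from it, and the 107 called higher in upf1 DMSO lie below it, with COS12 farthest.

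UPF1 is listed as NAM7 (chrXIII:426712-429627 of the R64 genome). Its level was 55.7 and 38.0 in WT CHX and 6.80 and 4.14 in upf1 DMSO, against 36.0 and 30.6 in WT DMSO and 6.02 and 4.80 in upf1 CHX. Every WT library lay above every upf1 library, and the difference was 2.71 ± 0.31 (limma adjusted p = 0.00861), a call that ended without either WT CHX library at 2.43 to 2.98. The 2 upf1 DMSO libraries still held 35 reads of the gene together, and the labels do not say which stretch was removed. The 5 MATa markers STE2, STE6, BAR1, MFA1 and MFA2 were read in every library, at a summed level of 16050 to 21380 in the WT libraries and 8757 to 13600 in the upf1 libraries. The 3 MATalpha markers summed to between 8.53 and 33.4. Of the auxotrophic markers HIS3 was tested, at 165.9 and 155.2 in WT CHX and 136.4 and 130.6 in upf1 DMSO, and was not called (0.26 ± 0.18, limma adjusted p = 0.431). LEU2, MET17 and URA3 were not analysed here.

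The RNA that most favoured the translation block was CIT2 (chrIII:120946-122328), the peroxisomal citrate synthase through which cells respond to failing mitochondria. It stood at 2269 and 2172 in WT CHX and at 45.9 and 19.9 in upf1 DMSO. WT DMSO, at 20.4 and 41.1, lay with upf1 DMSO, and upf1 CHX, at 2082 and 1917, lay with WT CHX. The difference was 6.10 ± 0.41, or 68.6-fold (limma adjusted p = 0.00174). CIT2 is the textbook target of the Rtg1-Rtg3 activator, which binds GTCAC. Its promoter, the 500 bases before the start codon, held these letters 3 times on either strand, as did 42.1% of 5527 promoters at least once. The windows are shown on the gene's strand of R64, with the matched letters in capitals.
CIT2 (chrIII:122656-122685): aggggcgaagagGTCACgacctattttttc
CIT2 (chrIII:122623-122652): cagaaaaaaagtGTGACcttttccgtagct
CIT2 (chrIII:122507-122536): cgtatgaaattgGTGACgttaatctaaaga

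NRG1 (chrIV:542674-543369), a zinc-finger repressor of glucose-repressed genes, stood at 132.6 and 144.1 in WT CHX and at 4.94 and 7.51 in upf1 DMSO (4.11 ± 0.23, limma adjusted p = 0.000843). SPO24 (chrXVI:645950-646153), a short gene of sporulation, stood at 8170 and 8862 against 1013 and 896 (3.16 ± 0.15, limma adjusted p = 0.000789). ICY1 (chrXIII:654034-654417) stood at 476 and 391 against 44.6 and 44.5 (3.22 ± 0.17, limma adjusted p = 0.000789). In NRG1, SPO24 and ICY1 both WT DMSO libraries lay beside upf1 DMSO and both upf1 CHX libraries beside WT CHX, with no overlap between the pair compared. NCE103, the carbonic anhydrase, followed this order, at 1143 and 1289 against 319 and 267 (2.05 ± 0.15, limma adjusted p = 0.00271). DPI8, picked after its values were seen, stood at 1778 and 2321 against 259 and 305 (2.84 ± 0.21, limma adjusted p = 0.00255). The calls of CIT2, NRG1, SPO24, ICY1, NCE103 and DPI8 held in each of the 8 single omissions of a library, with differences of 5.54 to 6.66 for CIT2 and 3.89 to 4.36 for NRG1.

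**Figure D2:**
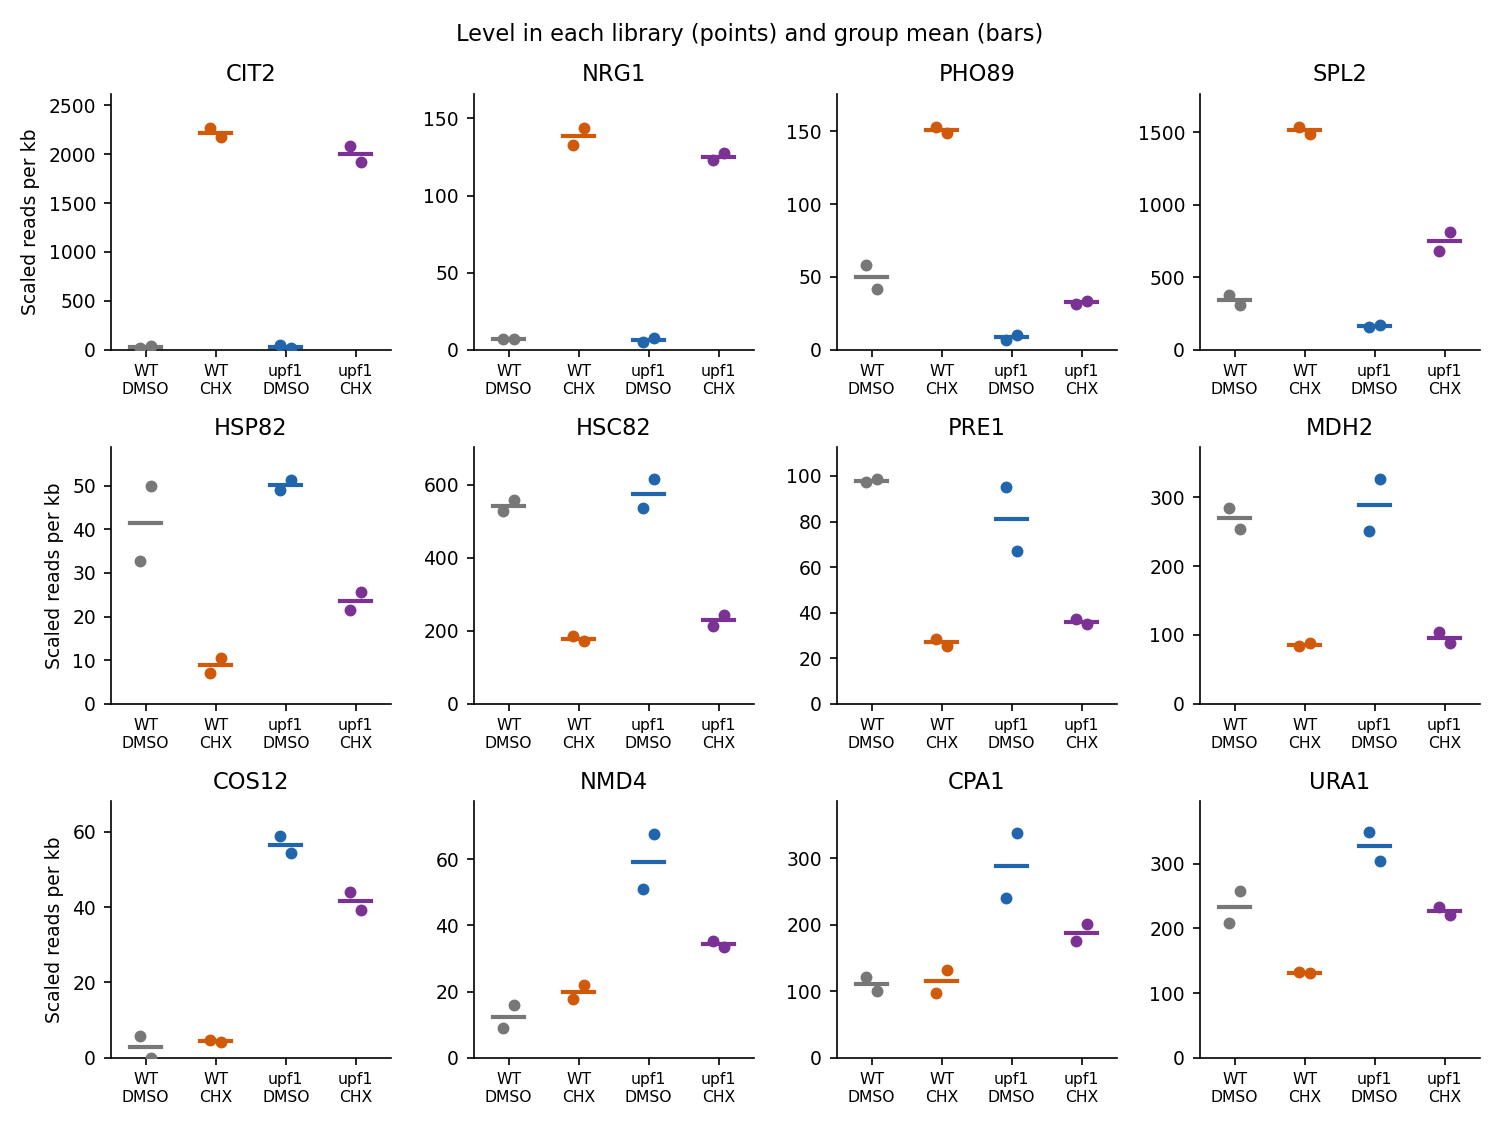
Level in scaled reads per kb (y axis, from 0) of 12 genes in each of the 8 libraries; points are libraries, 2 a group, and bars are group means. CIT2 and NRG1 were high in both cycloheximide groups, PHO89 and SPL2 were lowest in upf1 DMSO, HSC82, PRE1 and MDH2 were low in both cycloheximide groups, and COS12 and NMD4 were high in both upf1 groups.

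Genes of phosphate uptake and storage stood higher in WT CHX. Of 21 tested, 9 were called higher there and 0 higher in upf1 DMSO, which is 42.9% beside 4.55% of all ORFs, with a list median of 0.78 beside 0.03 over all ORFs. PHO89 (chrII:796798-798522), a sodium-coupled phosphate importer, stood at 152.7 and 148.8 in WT CHX and 6.88 and 10.5 in upf1 DMSO (3.86 ± 0.26, limma adjusted p = 0.00174). SPL2 (chrVIII:374654-375100), which restrains low-affinity phosphate uptake, stood at 1536 and 1486 against 158 and 170 (3.19 ± 0.17, limma adjusted p = 0.000789). For both, WT DMSO lay between the groups, at 58.5 and 41.6 for PHO89 and at 379 and 307 for SPL2, so that the block lay above untreated WT and the mutant below it. The secreted acid phosphatase PHO5 stood at 716 and 913 against 148 and 126 (2.55 ± 0.19, limma adjusted p = 0.00255). PHO84, the high-affinity transporter, stood at 3323 and 3476 against 1321 and 1668 (1.19 ± 0.21, limma adjusted p = 0.023), with WT DMSO at 3300 and 2436 beside WT CHX. PHO12, PHO11, PHM8, PHM6 and VTC1 differed by 2.34, 2.10, 1.84, 1.82 and 0.92. PHO11 and PHO12 are near-identical subtelomeric copies and remain uncertain, as no source used here states how multi-mapped reads were treated. With single libraries left out, 3 to 9 of the 9 calls were kept, PHO89, SPL2 and PHO5 in every case.

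Phosphate genes share the site of the activator Pho4, CACGTG, which reads alike on both strands. It stood in 15 of the 21 promoters of the list (71.4%) and in 8 of the 9 called, against 6.46% of all 5527. The windows of 6 called genes are shown because the letters sit in each, and SPL2 holds 4 of them, of which the nearest to its start codon is given. Capitals mark the match, and a match is a description, not evidence of binding.
PHO89 (chrII:798828-798857): atgacaatgcagCACGTGggagacaaatag
SPL2 (chrVIII:375114-375143): agtcactgcagcCACGTGcctagatctatt
PHO5 (chrII:431187-431216): ccttggcactcaCACGTGggactagcacag
PHO84 (chrXIII:26197-26226): tgttatttccagCACGTGgggcggaaatta
PHM6 (chrIV:1022583-1022612): gagcttcgctgaCACGTGggaggtgggata
VTC1 (chrV:302637-302666): aatagatattagCACGTGtctcggagagaa

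Iron genes followed, with 10 of 32 higher in WT CHX (31.2%, beside 4.55% of all ORFs), 0 higher in upf1 DMSO and a median of 0.77. ISU1, the scaffold on which iron-sulphur clusters are built, stood at 856 and 719 in WT CHX and 181 and 137 in upf1 DMSO (2.30 ± 0.23, limma adjusted p = 0.00618), with WT DMSO at 201 and 142 beside the mutant. FET3, the ferroxidase of iron uptake, stood at 1316 and 1490 against 559 and 610 (1.26 ± 0.17, limma adjusted p = 0.0126), but here WT DMSO, at 1842 and 1422, lay with WT CHX. Its partner permease FTR1, the siderophore-binding wall protein FIT2 and the siderophore transporter SIT1 lay in the order of FET3, at 1.11, 1.47 and 0.80, and the biotin transporter VHT1 differed by 1.46. SMF3, CCC1, MRS4 and FTH1 made up the rest of the 10, at 1.14, 1.38, 0.98 and 0.93. No iron call was kept in every fit with a library left out, and a fit of only the 4 libraries compared kept 3 of the 10.

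Histone genes had 5 of 11 higher in WT CHX (45.5%, beside 4.55% of all ORFs) and 0 higher in upf1 DMSO, with a median of 0.76, and only 1 of the 5 calls was kept in a fit of only the 4 libraries compared. HTA1, for histone H2A, stood at 3418 and 2654 against 1131 and 797 (1.66 ± 0.21, limma adjusted p = 0.0107) and HTB2, for H2B, at 1990 and 1858 against 1050 and 899 (0.98 ± 0.14, limma adjusted p = 0.0152). HHT1, HHT2 and HTB1 differed by 1.09, 0.79 and 0.76. Yeast histone genes come in near-identical pairs, so the split between copies is uncertain. Of the MATa and pheromone genes 5 of 20 were higher in WT CHX (25%) and 0 higher in upf1 DMSO, with a median of 0.78. STE2, the receptor for alpha factor, stood at 1162 and 1154 against 523 and 529 (1.14 ± 0.13, limma adjusted p = 0.00823). BAR1, the protease that degrades alpha factor, stood at 208 and 240 against 101 and 95.6 (1.17 ± 0.16, limma adjusted p = 0.0128). The a-factor genes MFA1 and MFA2 differed by 1.85 and 1.11 and the kinase FUS3 by 1.08, and in MFA1, MFA2 and BAR1 WT DMSO lay nearer WT CHX. Without the first or the second WT CHX library all histone and MATa calls ended, at 1.13 to 1.15 for STE2 over all single omissions, and those of BAR1 and HTB2 were among the calls lost without the second upf1 DMSO library. Leaving out 1 upf1 library kept 2 of the 5 histone calls and 1 to 4 of the 5 MATa calls.

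Stress and trehalose genes gave smaller groups higher in WT CHX. The environmental stress list had 9 of 45 higher in WT CHX (20%, beside 4.55% of all ORFs) and 1 higher in upf1 DMSO, the disaggregase HSP104, with a median of 0.52. TPS1 and TPS2, which make trehalose, stood at 341 and 284 against 135 and 107 (1.36 ± 0.23, limma adjusted p = 0.0219) and at 46.9 and 47.7 against 15.2 and 12.7 (1.64 ± 0.28, limma adjusted p = 0.0219). TSL1, of the same enzyme complex, differed by 1.47, and these were the 3 of 21 trehalose and glycogen genes called (14.3%, beside 4.55% of all ORFs), with a median of 0.38. The lactonase SOL4 differed by 1.81, DDR2 by 2.42, HOR7 by 1.05, RTC3 by 1.35 and the wall protein SPI1 by 1.27. In the Ehrlich pathway, which breaks down amino acids to fusel alcohols, ARO10 stood at 172 and 139 against 27.4 and 19.2 (2.65 ± 0.23, limma adjusted p = 0.00487) and ARO9 at 653 and 651 against 103 and 119 (2.54 ± 0.31, limma adjusted p = 0.0106). With the polyamine exporter TPO4 (2.82) and the decarboxylase PDC6, which had 25 reads against 0, that list had 4 of 17 higher in WT CHX (23.5%) and 0 higher in upf1 DMSO. Glycolysis and fermentation lay on neither side, with a median of -0.04 and 13 of 27 differences above 0. The list held 4 genes higher in WT CHX (14.8%, beside 4.55% of all ORFs) and 0 higher in upf1 DMSO. They were PDC6 and ADH2, PYK2 and TDH1, of which the last 3 differed by 1.71, 1.65 and 1.00. NRG2, the close relative of NRG1, differed by 2.56. Cell wall mannoproteins had 7 of 27 higher in WT CHX (25.9%) and 0 higher in upf1 DMSO, among them PST1 at 761 and 855 against 201 and 155 (2.18 ± 0.23, limma adjusted p = 0.00706). The anaerobic wall gene DAN1, with 19 reads in WT CHX against 0, was at least 3.75-fold higher, against a floor of 3 reads over the group, which covers counting error only. These calls leaned on single libraries. Leaving out 1 library of WT CHX or upf1 DMSO kept 1 of the 10 stress calls, 0 of the 3 trehalose calls, 0 to 2 of the 4 fermentation calls, 0 or 1 of the 4 Ehrlich calls and 0 or 1 of the 7 wall calls. Leaving out 1 of upf1 CHX kept 3 or 5, 1 or 2, 2, 2 and 2 of them. The ARO10 call ended without the first WT CHX library only. In a fit of only the 4 libraries compared 2 of the 4 fermentation calls and 3 of the 7 wall calls were kept.

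Genes that stood higher with loss of UPF1 were led, as a group, by chaperones. Among 21 targets of the heat shock factor, 9 were higher in upf1 DMSO, 0 were higher in WT CHX and 20 differences lay below 0, with a median of -1.24. The called share was 42.9%, beside 1.79% of all ORFs. Hsp90 is encoded by HSC82 and HSP82, close copies of uncertain split. HSC82 (chrXIII:632355-634472) stood at 185 and 172 in WT CHX and 535 and 615 in upf1 DMSO (-1.67 ± 0.15, limma adjusted p = 0.00604), and HSP82 (chrXVI:96496-98625) at 7.07 and 10.6 against 49.1 and 51.2 (-2.29 ± 0.29, limma adjusted p = 0.0111). On the ORF-median scale both WT DMSO libraries of HSC82, at 527 and 558, lay beside upf1 DMSO. Both upf1 CHX libraries, at 213 and 243, lay beside WT CHX. On the deposited scale WT DMSO lay beside WT CHX instead, and upf1 CHX beside upf1 DMSO.

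The Hsp90 partners moved alike. CPR6, a cyclophilin that binds Hsp90, stood at 29.7 and 35.9 against 108 and 142 (-1.86 ± 0.22, limma adjusted p = 0.0102). STI1, which links Hsp70 to Hsp90, and SIS1, an Hsp40, differed by -1.64 and -1.69, and the Hsp110 SSE1 by -1.38. The Hsp70 genes SSA1 and SSA2, close copies as well, differed by -1.25 and -1.46, and HSP104 by -1.20 (limma adjusted p = 0.0495). The HSP104 call, which had the largest adjusted p of the 9, ended on the deposited scale, at a pseudocount of 0.5, with no filter and in a fit of only the 4 libraries compared. The 12 members not called included HSF1 itself at 0.34 and SSA4, the inducible Hsp70, at -0.09. Over the list the median of WT CHX minus WT DMSO was -1.38 and that of upf1 DMSO minus WT DMSO was 0.08, 2 values that share the WT DMSO libraries. On the deposited scale the list median was -0.53 and 7 of the 9 calls were kept. Without the first or the second WT CHX library all 9 calls ended, and over all single omissions the median stayed between -1.25 and -1.17.

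A heat shock element spelled as TTC, GAA and TTC with 2 free bases between neighbours, read on both strands, lay in the promoters of 12 of the 21 listed genes (57.1%), of 6 of the 9 called, and of 1.54% of all 5527. The promoters of HSC82, HSP82 and CPR6 did not hold these letters in that window. Those of the 6 are shown, 1 window each, on the gene's strand with the matched letters in capitals.
SSA1 (chrI:141671-141700): tcttctttTTCcaGAAcgTTCcatcggcgg
SSA2 (chrXII:97697-97726): aagtttttTTCtaGAAcaTTCcatcgaaga
SSE1 (chrXVI:352440-352469): gaagatgaTTCtaGAAgaTTCcttttccaa
HSP104 (chrXII:88313-88342): atatatttTTCcaGAAttTTCtagaagggt
SIS1 (chrXIV:619883-619912): tatgaacgTTCcaGAAacTTCtggaaaaag
STI1 (chrXV:380803-380832): ctgatatcTTCgtGAAgaTTCgtgtagtat

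Proteasome genes stood on the same side. Of 34 subunits, 6 were higher in upf1 DMSO (17.6%, beside 1.79% of all ORFs) and 0 in WT CHX, and 32 differences lay below 0, with a median of -0.75 that came to -0.02 on the deposited scale. PRE1, a subunit of the core, stood at 28.6 and 25.4 in WT CHX and 95.1 and 67.2 in upf1 DMSO (-1.50 ± 0.22, limma adjusted p = 0.0152). RPN5, of the regulatory lid, stood at 23.2 and 20.5 against 56.3 and 60.8 (-1.34 ± 0.19, limma adjusted p = 0.0136). The core subunits PRE7 and PRE9 and the regulatory subunits RPN7 and RPN12 differed by -1.08, -1.16, -1.59 and -1.20. PRE1 and RPN5 were at 97.2 and 98.6 and at 75.7 and 70.3 in WT DMSO, so on this scale these levels too lay with upf1 DMSO. On the deposited scale WT DMSO lay nearer WT CHX for both genes. All 6 calls ended without either WT CHX library, with PRE1 at -1.75 to -1.26 over the single omissions. Those of PRE7, RPN7 and RPN12 also ended when any 1 upf1 library was left out, that of RPN5 without either upf1 DMSO library and that of PRE1 without the first of these. The deposited scale kept 1 of the 6, PRE1 and RPN5 not among them, and a fit of only the 4 libraries compared kept 2.

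Proteasome genes are known for the site of their activator Rpn4, GGTGGCA. Read on both strands, it lay in 27 of 34 listed promoters (79.4%) and in all 6 of the called subunits, against 4.56% of all 5527. The 6 windows are given with the match in capitals, which reads TGCCACC where it lies on the other strand.
PRE1 (chrV:177682-177711): gaaatctttacGGTGGCAaaaaataaagaa
PRE7 (chrII:141149-141178): gaaactcaaagGGTGGCAaaaacaagcggt
PRE9 (chrVII:761222-761251): gttaccctgcaGGTGGCAaaaaatttatag
RPN5 (chrIV:190775-190804): tttgacttttcGGTGGCAaaatgcaaaggg
RPN7 (chrXVI:742291-742320): taagttaagttTGCCACCcattgaggatta
RPN12 (chrVI:252399-252428): tacacattattTGCCACCcattgaaattgt

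Across all called ORFs with a promoter in R64, the heat shock letters were held by 9 of the 106 higher in upf1 DMSO (8.49%) and 3 of the 227 higher in WT CHX (1.32%). The Rpn4 letters were held by 14 (13.2%) and 11 (4.85%). The stress element AGGGG stood in 30.2% and 43.2%, beside 34.5% of all promoters. CCGCGG, the site of Pdr1 and Pdr3, stood in 0 and 15, or 6.61% of the latter, beside 3.18% of all. TGACTC, the site of Gcn4, stood in 13.2% and 10.6%, beside 13% of all.

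Some metabolic and folding genes outside these lists lay on the upf1 side in the same order. GND1, the dehydrogenase of the pentose phosphate pathway, stood at 267 and 347 in WT CHX and 873 and 1371 in upf1 DMSO (-1.84 ± 0.25, limma adjusted p = 0.0126), and MDH2, the cytosolic malate dehydrogenase, at 83.3 and 87.8 against 251 and 326 (-1.72 ± 0.19, limma adjusted p = 0.0077). RAD6, a ubiquitin-conjugating enzyme, stood at 18.7 and 18.6 against 76.7 and 82.5 (-1.98 ± 0.24, limma adjusted p = 0.0104). On this scale WT DMSO lay above WT CHX in all 3 genes, at 1543 and 1336, at 285 and 254 and at 52.6 and 40.8. On the deposited scale both WT DMSO libraries lay above both of WT CHX for GND1 only. Leaving out a WT CHX library ended all 3 calls, and those of GND1 and RAD6 also without the second upf1 DMSO library. In the endoplasmic reticulum list KAR2, the lumenal Hsp70, and ERO1, the oxidase of disulphide formation, were higher in upf1 DMSO (-1.30 and -1.26), which is 7.41% of 27 beside 1.79% of all ORFs, and 0 were higher in WT CHX. That list had a median of -0.32, which became 0.42 on the deposited scale, where neither call was kept. Without either WT CHX library both calls ended as well. Of 50 amino acid genes under Gcn4, LEU1, LYS9, HIS5, ASN1 and GDH1 were higher in upf1 DMSO, at -1.31, -1.15, -1.17, -1.09 and -0.79, and 0 were higher in WT CHX. That is 10% of the list beside 1.79% of all ORFs, while its median was 0.05 and 28 of 50 lay above 0. None of the 5 calls was kept on the deposited scale, where 23 members were higher in WT CHX, or without either WT CHX library, and 1 was kept in a fit of only the 4 libraries compared. CYS4, of cysteine synthesis, was higher in upf1 DMSO by a small margin (-0.59, limma adjusted p = 0.0492), and its sign turned on the deposited scale. GCN4 itself stood at 386 and 219 against 389 and 202 (0.05 ± 0.37, limma adjusted p = 0.956).

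The RNAs in which loss of UPF1 exceeded both untreated and blocked WT form a smaller set. COS12 (chrVII:2790-3932), of a subtelomeric family with near-identical copies and therefore uncertain, stood at 4.73 and 4.23 in WT CHX, while upf1 DMSO was at 58.9 and 54.3, WT DMSO at 5.70 and 0 and upf1 CHX at 43.9 and 39.2 (-3.18 ± 0.57, limma adjusted p = 0.0254). Both upf1 groups lay above both WT groups. DFP1 stood at 13.4 and 20.8 in WT CHX and 72.0 and 54.8 in upf1 DMSO, with WT DMSO at 8.40 and 12.4 (-1.79 ± 0.30, limma adjusted p = 0.0215). SHU2, of a complex for recombinational repair, had 4 reads against 23 (-2.25 ± 0.50, limma adjusted p = 0.0466), and HRT3, an F-box protein, 10 against 42 (-2.04 ± 0.39, limma adjusted p = 0.0317). WT DMSO held only 1 read of SHU2 and 4 of HRT3. For upf1 DMSO minus WT DMSO, SHU2 was called (2.47, limma adjusted p = 0.0326) and HRT3 was not (1.60, limma adjusted p = 0.0521).

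NMD4 (chrXII:852495-853151), a factor of NMD whose RNA is itself a known target, stood at 17.7 and 22 in WT CHX, while upf1 DMSO was at 50.9 and 67.5, WT DMSO at 8.91 and 15.8 and upf1 CHX at 35.4 and 33.6 (-1.48 ± 0.30, limma adjusted p = 0.0369). Each upf1 library lay above each WT library. TCA17, of a vesicle-tethering complex, OTU1, a deubiquitylating enzyme, and NBL1, of the chromosomal passenger complex, were looked at after their values were seen and lay in this order, at -1.52, -1.42 and -1.37. NBL1 stood at 72.6 and 73.6 in WT CHX, with upf1 DMSO at 198 and 185 and WT DMSO at 31.4 and 23.2, so here the block too lay above untreated WT. The calls of COS12, DFP1, SHU2, HRT3 and NMD4 ended when any WT CHX, upf1 DMSO or upf1 CHX library was left out, those of TCA17 and NBL1 for any WT CHX or upf1 DMSO library, and that of OTU1 for 5 libraries, all but WT DMSO and the second of upf1 DMSO. Over the single omissions COS12 stayed between -3.26 and -3.11 and NMD4 between -1.68 and -1.28.

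CPA1 (chrXV:882899-884134) makes the small subunit of the carbamoyl phosphate synthase of arginine synthesis, and its RNA carries a short upstream reading frame at which arginine stalls the ribosome and exposes the RNA to NMD. It stood at 97.9 and 132 in WT CHX and 239 and 338 in upf1 DMSO, with WT DMSO at 121 and 101 and upf1 CHX at 175 and 201 (-1.31 ± 0.24, limma adjusted p = 0.0271). The upstream frame has a row of its own, YOR302W (chrXV:882765-882842), which shares the transcript and was looked at because of CPA1. It stood at 123 and 153 in WT CHX and 280 and 383 in upf1 DMSO (-1.25 ± 0.22, limma adjusted p = 0.0252). In both rows the 2 upf1 DMSO libraries lay above all others and the blocked WT lay beside the untreated one. Both calls ended when any WT CHX, upf1 DMSO or upf1 CHX library was left out, at -1.56 to -1.06 for CPA1. On the deposited scale neither CPA1 (-0.53) nor NMD4 (-0.74) was called.

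Known NMD targets and regulators as a list gave 2 of 31 called higher in upf1 DMSO (6.45%, beside 1.79% of all ORFs), CPA1 and NMD4, and 0 higher in WT CHX. A fit of only the 4 libraries compared kept neither call. Of the 31, 22 lay below 0, with a median of -0.48 that turned to 0.27 on the deposited scale. Against WT DMSO the list median was 0.22 for the block and 0.49 for the deletion, 2 values that share the WT DMSO libraries. Within the list, DAL7, of allantoin use, stood at 32.9 and 35 in WT CHX and 76.4 and 56.6 in upf1 DMSO and was not called (-0.92 ± 0.47, limma adjusted p = 0.287), with WT DMSO at 14.4 and 3.56. ALR1, the magnesium importer, was not called either, at -0.48 (limma adjusted p = 0.252).

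The pyrimidine pathway offers a second route to NMD targets, since the RNA of its activator Ppr1 is a textbook substrate. PPR1 was too weakly read to compare, with 36 reads in WT CHX against 18 in upf1 DMSO, at 5.60 and 2.78 against 3.36 and 3.26 (0.18 ± 0.46, limma adjusted p = 0.848), and its sign changed with the scaling. URA1 (chrXI:25215-26159), the dihydroorotate dehydrogenase that Ppr1 switches on, stood at 132.1 and 131.4 in WT CHX and 349 and 304 in upf1 DMSO (-1.30 ± 0.17, limma adjusted p = 0.0115). WT DMSO, at 209 and 258, lay between the groups. URA4, the dihydroorotase, stood at 62.9 and 51.7 against 125 and 109 (-1.01 ± 0.20, limma adjusted p = 0.0326), and URA10 was not called (-0.36 ± 0.34, limma adjusted p = 0.563). Of 13 genes listed for the pyrimidine pathway and Ppr1, 3 were higher in upf1 DMSO (23.1%, beside 1.79% of all ORFs) and 0 in WT CHX. The list median was 0.12. The 3 were URA1, URA4 and CPA1, of which CPA1 belongs to arginine synthesis and was also counted among the NMD targets. On the deposited scale 0 of these 3 calls were kept and 4 members were higher in WT CHX, and a fit of only the 4 libraries compared kept 1. The Ppr1 site, TTCGG and CCGAA with 6 free bases between them, reads alike on both strands. It stood in 2 of 5527 promoters, and URA1 held 1 of them, shown with the fixed letters in capitals. The other belonged to a gene higher in WT CHX. The URA1 call ended without either WT CHX library or the first upf1 DMSO library, at -1.39 to -1.20, and that of URA4 when any 1 WT CHX or upf1 library was left out.
URA1 (chrXI:25025-25054): cacgatcTTCGGcattcgCCGAAaattttt

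The remaining groups can be placed beside the pair compared for each called ORF, on the ORF-median scale. Of the 272 ORFs higher in WT CHX, WT DMSO lay nearer to upf1 DMSO in 190 and nearer to WT CHX in 82. For 150 of them WT DMSO lay by upf1 DMSO while upf1 CHX lay by WT CHX, the order of CIT2, and for 48 both lay the other way, the order of NAM7. Of the 107 ORFs higher in upf1 DMSO, WT DMSO lay nearer to upf1 DMSO in 77, as for the chaperones, and nearer to WT CHX in 30, as for COS12 and NMD4. These placings use the compared libraries as well and are descriptions. They were not counted on the deposited scale or over all ORFs tested. WT DMSO was also the shallowest group, with a median of 9 and 6 reads per ORF.

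**Figure D3:**
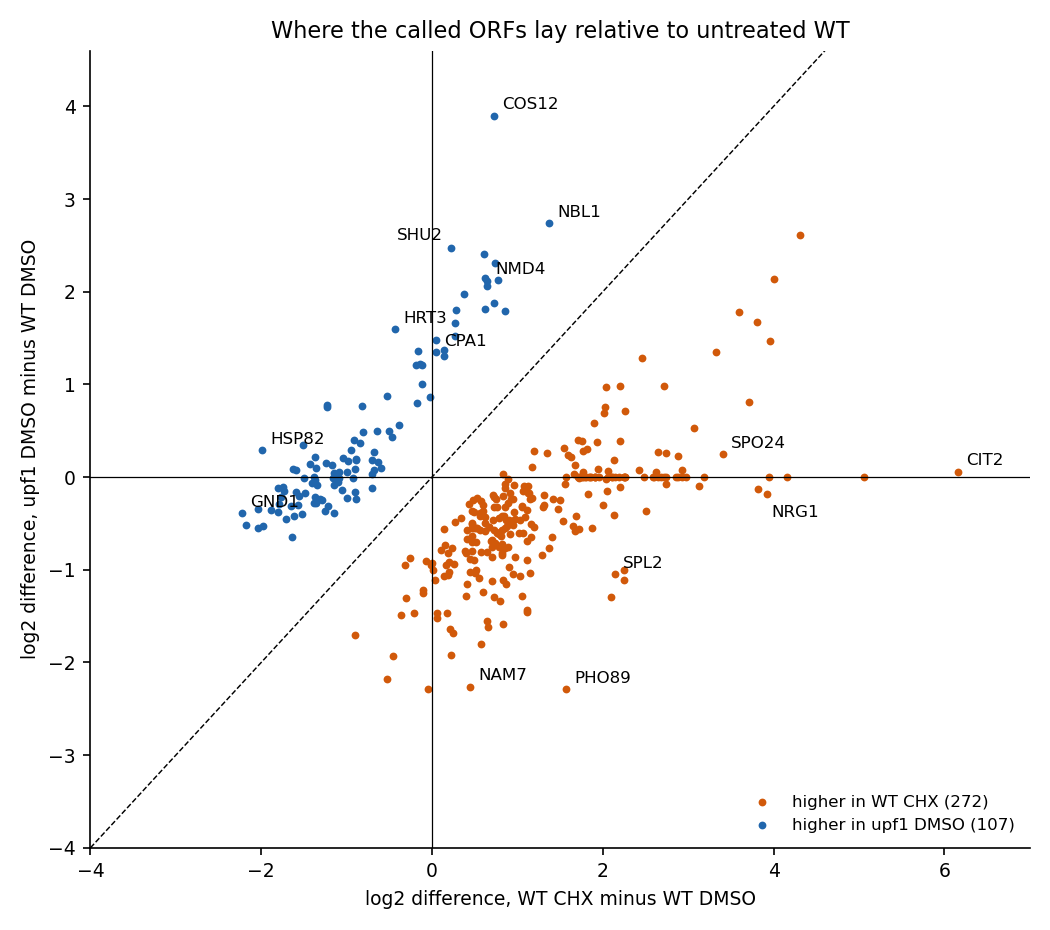
For the 379 called ORFs, the log2 difference of WT CHX from WT DMSO (x axis) and of upf1 DMSO from WT DMSO (y axis); both axes share the WT DMSO libraries, and the dashed line marks equal values, which the calls by their nature avoid. HSP82 and GND1 lie left of 0 on the x axis and near 0 on the y axis, COS12, NBL1 and NMD4 lie high on the y axis, CIT2, NRG1 and SPO24 lie far right near 0, and PHO89 and NAM7 lie below 0.

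**Figure D4:**
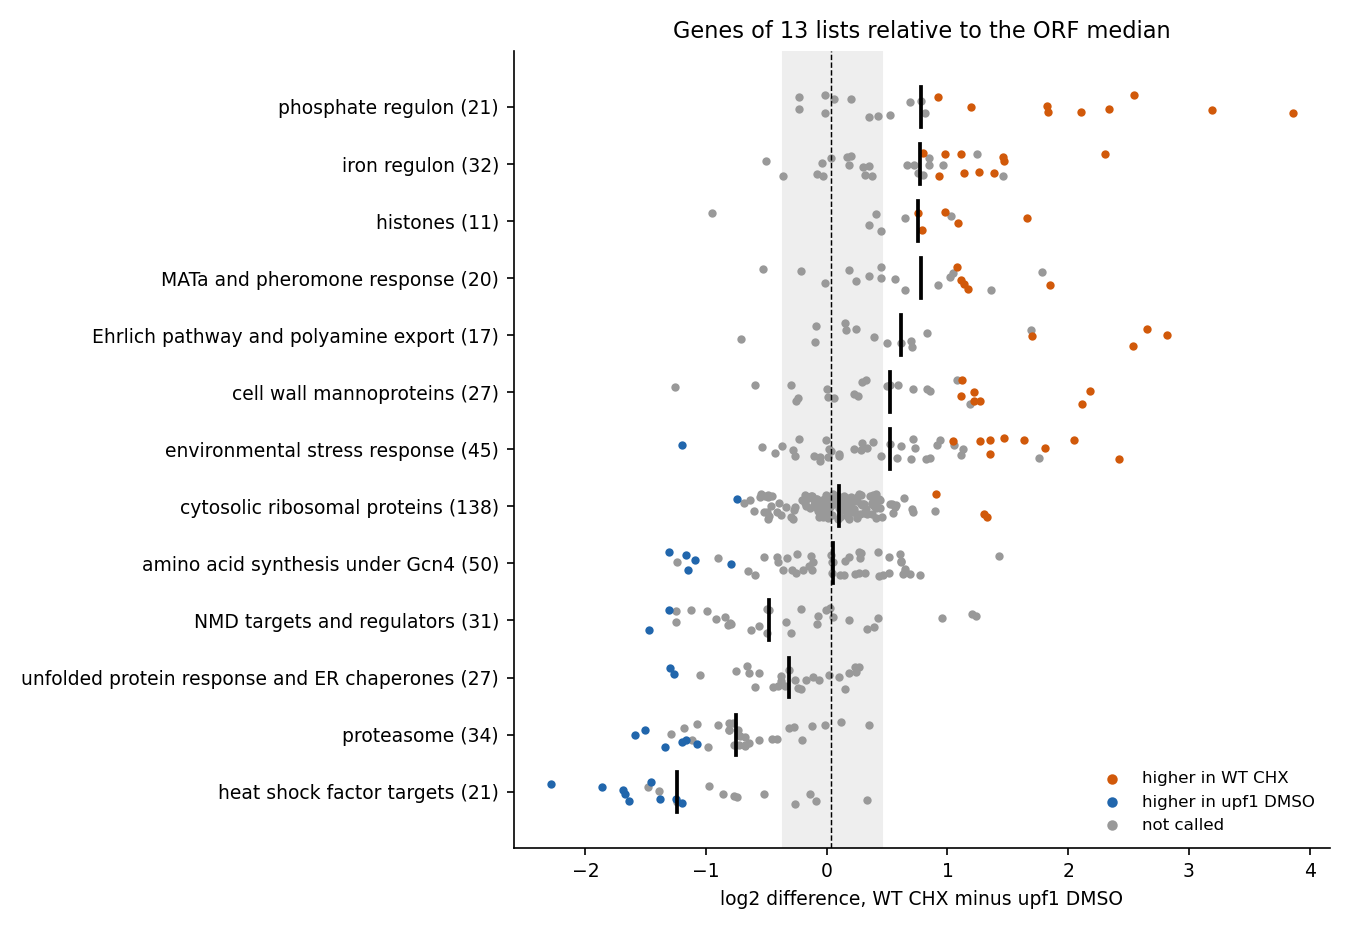
Log2 difference between WT CHX and upf1 DMSO (x axis) for each tested gene of 13 lists, with the number tested in brackets; black bars are list medians, the grey band spans the quartiles of all 5974 ORFs and the dashed line is their median. Heat shock factor targets (median -1.24) lie farthest to the upf1 side, and the phosphate regulon (0.78) holds genes far to the WT CHX side.

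Non-coding RNAs are given by class, beside 4.84% of all features higher in WT CHX and 1.49% higher in upf1 DMSO. XUTs, the transcripts that the 5′-to-3′ exonuclease Xrn1 degrades in the cytoplasm, had 52 of 1373 higher in WT CHX (3.79%) and 16 higher in upf1 DMSO (1.17%), near the share of ORFs. Of the 52, 33 had at most 3 reads in upf1 DMSO, and of the 16, 4 had at most 3 reads in WT CHX. Summed over the class XUTs came to 17.9 ± 1.30 (SD, n = 2, in units of 1000 scaled reads per kb) in WT CHX and 16.4 ± 0.403 in upf1 DMSO, beside 10.4 ± 2.44 in WT DMSO. SUTs, the stable unannotated transcripts, had 25 and 9 of 705 called (3.55% and 1.28%), with sums of 11.4 ± 0.42 and 11.3 ± 0.0426. CUTs, which the nuclear exosome degrades, had 57 of 756 higher in WT CHX (7.54%) and 1 in upf1 DMSO (0.132%), with a median of 0.79. Their sums were 16.5 ± 0.82 in WT CHX and 10.5 ± 1.14 in upf1 DMSO, beside 17.1 ± 4.9 in WT DMSO and 8.18 ± 0.147 in upf1 CHX, so both upf1 groups lay below both WT groups. NUTs, transcripts left unterminated without Nrd1, had 63 and 11 of 1243 called (5.07% and 0.885%), with a median of 0.51. The first share lay near that of all features. Their sums went the other way, at 94.5 ± 18.5 in WT CHX against 151 ± 22.9 in upf1 DMSO, with WT DMSO at 257 ± 36.5 and upf1 CHX at 55.9 ± 2.79. The SUT median of 0.03 and the XUT median of 0.27 turned to -0.25 and -0.05 with quantile normalization, while those of CUTs and NUTs stayed above 0 under all 4 other scalings tried. Calls were lost in every class when a WT CHX library was left out, with 0 or 1 of 68 XUT, 0 of 34 SUT, 1 or 2 of 58 CUT and 0 or 1 of 74 NUT calls kept.

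Single non-coding RNAs rested on few reads. CUT300 stood at 100.5 and 104.7 in WT CHX and 8.65 and 4.39 in upf1 DMSO (3.67 ± 0.30, limma adjusted p = 0.00377). XUT0717 and NUT0592 gave like levels, at 104 and 99.5 against 6.92 and 2.63, and at 87.8 and 93.6 against 7.19 and 1.82. The transcript catalogues overlap and no coordinates of these 3 were used here, so they may count the same reads. XUT1223, with 20 reads against 0, was at least 3.95-fold higher in WT CHX. In the other direction XUT1657 had 2 reads in WT CHX against 27 in upf1 DMSO, a ratio of 22.8 (exact 95% interval 5.73 to 198), with 0 in both WT DMSO libraries. XUT1639 had 33 against 177 reads (-2.44 ± 0.40, limma adjusted p = 0.0205), XUT1240 had 19 against 89 (-1.87 ± 0.34, limma adjusted p = 0.0271) and SUT262 had 14 against 38 (-2.05 ± 0.30, limma adjusted p = 0.0156). Leaving out either WT CHX library ended all 8 calls. Those of XUT1657 and SUT262 also ended without the second upf1 DMSO library, that of XUT1639 without either, and those of XUT1223 and XUT1240 when any 1 upf1 library was left out, and that of XUT1223 at a pseudocount of 0.5 too.

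Transfer RNAs stood higher in WT CHX, with 32 of 235 called (13.6%, beside 4.84% of all features), 0 called in upf1 DMSO and a median of 1.35. They carry no cap, and whether digestion differed between the libraries was not tested. Copies share reads, and many rest on few. tK(CUU)E1 stood at 585 and 752 against 127 and 154 (2.23 ± 0.27, limma adjusted p = 0.0104), and tE(UUC)K had 30 reads against 2, a ratio of 8.88 (exact 95% interval 2.25 to 76.7). Both had WT DMSO levels beside those of WT CHX, at 777 and 644 and at 157 and 93.3. Of 76 snoRNAs, 10 were higher in upf1 DMSO (13.2%, beside 1.49% of all features) and 2 in WT CHX (2.63%). Their median of -0.69 became 0.05 on the deposited scale. snR13 stood at 4377 and 5895 against 12260 and 16340 (-1.48 ± 0.24, limma adjusted p = 0.0196) and snR8 at 3218 and 4823 against 7879 and 12490 (-1.33 ± 0.28, limma adjusted p = 0.0421). The spliceosomal RNA LSR1 differed by -1.09 (limma adjusted p = 0.0478). Leaving out 1 library of WT CHX or upf1 DMSO kept 6 to 12 of the 32 transfer RNA calls and 0 to 2 of the 12 snoRNA calls, and a fit of only the 4 libraries compared kept 31 and 2. The calls of tK(CUU)E1, tE(UUC)K, snR13, snR8 and LSR1 all ended without either WT CHX library, and those of snR13, snR8 and LSR1 also when any 1 upf1 library was left out.

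**Figure D5:**
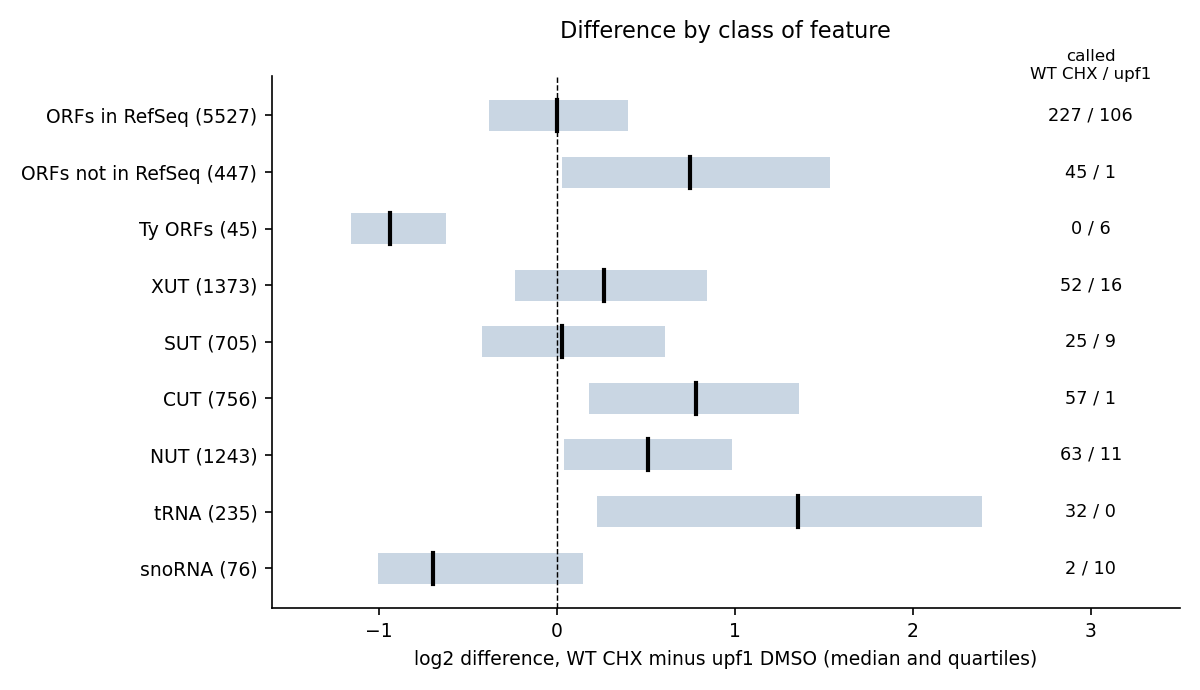
Median (black bar) and quartiles (box) of the log2 difference between WT CHX and upf1 DMSO (x axis) for each class of feature, with the number tested in brackets and, at the right, the numbers called higher in WT CHX and in upf1 DMSO. Transfer RNAs, CUTs and ORFs not in RefSeq lie to the WT CHX side, Ty and snoRNA features to the upf1 side, the latter not so on the deposited scale.

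Among ORFs, those with no entry in the RefSeq annotation of R64 stood apart, with 45 of 447 higher in WT CHX (10.1%, beside 4.55% of all ORFs). There was 1 higher in upf1 DMSO (0.224%, beside 1.79% of all ORFs). Their median was 0.75, beside 0.00 for the 5527 with an entry. Of the 272 ORFs higher in WT CHX, 52 had at most 3 reads in upf1 DMSO. YHR214C-E (chrVIII:551200-551499), which has an entry and lies before PHO12 (chrVIII:552099-553502), had 60 reads in WT CHX and none in upf1 DMSO, at least 11.8-fold more, and its call held in all 8 omissions. YPL238C and YAR070C, with no entry, had 34 and 30 reads against 0 and were at least 6.71-fold and 5.92-fold higher. YHL034W-A and YHR193C-A had 28 and 20 against 0, at least 5.53-fold and 3.95-fold. YER053C-A (chrV:260933-261046) was well read, at 396 and 362 against 36.6 and 13.9 (3.94 ± 0.43, limma adjusted p = 0.00741). MPC3, a subunit of the carrier that brings pyruvate into mitochondria, had 30 reads against 1, which gives a ratio of 17.8 (exact 95% interval 2.95 to 725). The calls of YHL034W-A, YHR193C-A and MPC3 ended when any WT CHX or upf1 library was left out, and at a pseudocount of 0.5. Those of YPL238C and YER053C-A ended without either WT CHX library, and that of YAR070C without the first. ORFs of the Ty retrotransposons, whose copies share reads, had 6 of 45 higher in upf1 DMSO (13.3%, beside 1.79% of all ORFs) and 0 in WT CHX, with 44 of 45 below 0.

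Of 100 features named by a fixed rule 96 were called, and all 100 kept their direction and side of the threshold in voom on the recovered reads. With single libraries left out, 88 of the 96 calls ended without the first WT CHX library and 86 without the second, 59 and 69 without the first and second upf1 DMSO library, 42 and 44 without those of upf1 CHX, which lie outside the comparison, and 0 without either WT DMSO library.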

How the data were processed

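The 8 libraries were yeast total RNA treated with Terminator exonuclease. What the authors deposited is a table whose values are a normalized signal (read density) for each of 11844 features in each library. The submitters' processing notes name DESeq2, featureCounts 2.0.0, HISAT2 2.2.0, Trim Galore and the R64 genome, with no role for each. How multi-mapped reads were treated and which feature lengths were used is not given in the sources used here. Whole reads were recovered as density times a length over a library factor, and 100% of the positive values came out whole within 0.001 reads. Recovered lengths exceeded the RefSeq span for 86% of ORFs. The table has 6562 Y-named ORFs, of which 5939 are in RefSeq. Recovered reads per library ranged from 1311200 to 5691418.

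Each library was scaled to a common median of the tested ORFs. Features whose mean reached 2 scaled reads per kb entered the test. The test was that of limma 3.58.1 (R 4.3.3), run on log2 values with a pseudocount of 2 and a variance trend, all 8 libraries in 1 fit, 4 residual and 3.11 prior degrees of freedom, two-sided. With 2 libraries a group, p-values measure the spread between these cultures. Ratios and floors came from pooled recovered reads. Sequences and coordinates were read from the R64 genome and its RefSeq annotation. Motifs were sought in the 500 bases before the start codon of 5527 tested ORFs.

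Named were NAM7, PPR1, URA1, URA4, URA10, CIT2, NRG1, SPO24, CPA1, GCN4 and the auxotrophic marker HIS3, the 10 ORFs of largest difference in each direction with at least 20 reads in the higher group, the 4 XUTs, SUTs, CUTs or NUTs and 2 other non-coding features likewise, and the 2 genes of smallest p in each direction of each list. Members and lists were chosen with earlier results of these data known. Tried were other scalings, pseudocounts and filters, only the 4 libraries compared, a replicate block, voom on recovered reads and single omissions. The test was also run on simulated reads, with an outcome not given here. Only well-read features were changed there, so that run cannot show how weakly read ones fare.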

Additional observations from a re-analysis of the deposited data

How the results depend on the processing

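Counts moved with scale and method. For all features, ORFs and XUTs in turn, those higher in WT CHX numbered 3165, 1743 and 334 on the deposited scale and 1088, 551 and 107 with voom on the recovered reads. Those higher in upf1 DMSO numbered 45, 25 and 8 on the deposited scale, 452, 299 and 50 with quantile normalization and 618, 435 and 57 with voom. With the 75th percentile of ORFs made equal, 234 features and 166 ORFs were higher in upf1 DMSO. In a fit of only the 4 libraries compared, 161 ORFs were higher in WT CHX, and 58 features and 36 ORFs higher in upf1 DMSO. At 4 times the pseudocount 82 XUTs were higher in WT CHX against 27 in upf1 DMSO, and with centring after the pseudocount 25 XUTs were higher in upf1 DMSO. With single libraries left out, counts higher in WT CHX ran from 24 to 959 for all features, 11 to 440 for ORFs and 0 to 116 for XUTs, and counts higher in upf1 DMSO from 0 to 349, 0 to 236 and 0 to 42. The highest counts came without a WT DMSO library and the lowest without a WT CHX library, a count of 0 XUTs higher in upf1 DMSO also coming without upf1 DMSO replicate 2. Same-numbered libraries deviated together with a correlation of 0.118 between WT CHX and upf1 DMSO and of -0.0431 to 0.118 over the 6 pairs of groups, so the numbers were not taken as a pairing. With the replicate block the counts higher in WT CHX were 415, 237 and 41 for all features, ORFs and XUTs and those higher in upf1 DMSO 130, 86 and 14, and 10 of the 96 named calls ended (HSP104, MIG1, SOL1, CYS4, RPC31, RFA1, PIR3, IDI1, PCL5 and LIF1). The sign turned for CYS4 and RPS6A on the deposited scale (0.198 and 0.0431), for URA10 there (0.393), for PPR1 with centring (-0.00534), quantile normalization (-0.173) and without WT CHX replicate 1 (-0.149, up to 0.513 over the single omissions), and for GCN4 with quantile normalization (-0.109), the 75th percentile (-0.0271), without WT CHX replicate 1 (-0.355) and without upf1 DMSO replicate 2 (-0.421, up to 0.523 over the single omissions). The deposited scale ended 23 of the 96 named calls and a fit of only the 4 libraries compared 31, and 53 named calls ended in no setting other than a single omission. The cause of these shifts was not tested. Depth limits weakly read RNAs most, since a XUT had a median of 0 to 13 reads per library.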

Other observations

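Ribosome genes hardly took part in the comparison. Of 138 cytosolic ribosomal protein genes, RPL18B, RPS9A and RPS28B were higher in WT CHX (0.90, 1.31 and 1.33) and RPS6A was higher in upf1 DMSO (-0.74, with its sign turned on the deposited scale), with a median of 0.10. These shares, 2.17% and 0.725%, lay below the 4.55% and 1.79% of all ORFs. Ribosome biogenesis had 1 of 109 higher in WT CHX, TIF6, which guards the large subunit before use, at 878 and 654 against 351 and 219 (1.44 ± 0.25, limma adjusted p = 0.0236), and 0 higher in upf1 DMSO. The list of mitochondrial ribosomal protein genes also took in MRX genes. It had 4 of 84 higher in WT CHX (4.76%, near the 4.55% of all ORFs) and 0 higher in upf1 DMSO. The 4 were the ribosomal protein genes MRPL4 (1.53) and MRPL28, and MRX3 (2.43) and MRX11, which do not encode ribosomal proteins. RPC31, of RNA polymerase III, was higher in upf1 DMSO, with 9 reads against 20 (-1.44 ± 0.31, limma adjusted p = 0.0422).

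RNA decay genes gave few calls. Of 34 genes of the exosome, Ski and deadenylation machinery, 3 were higher in WT CHX (8.82%, beside 4.55% of all ORFs). None was higher in upf1 DMSO, and the list median was -0.05. The 3 were CAF40 (1.26) and POP2, subunits of the deadenylase complex, and the early-termination factor NRD1 (1.11). STM1, a ribosome-binding protein, was higher in upf1 DMSO (-1.08). XRN1, the 5′-to-3′ exonuclease, stood at 24.5 and 27.1 in WT CHX and 41.6 and 44.1 in upf1 DMSO and was not called (-0.69 ± 0.20, limma adjusted p = 0.0912). Sterol genes split, with ERG1 higher in WT CHX (0.78) and IDI1 and ERG20 higher in upf1 DMSO (-1.04 and -0.88). Respiratory genes split as well, with NDI1 at 1.39 and QCR7 and ATP4 at -0.90 and -1.16. Cell cycle genes called higher in WT CHX included EGT2 (1.42), CRH1 (1.11) and PIR3 (1.22), and RFA1 was higher in upf1 DMSO (-1.21). The transporters RSB1 and FLR1 lay at 1.73 and -1.40. The proline oxidase PUT1 lay at 1.74, the lactate dehydrogenase DLD3 at 1.09, the glucose sensor RGT2 at 1.39 and the lactonase SOL1 at 1.23. The glucose repressor MIG1, the cyclin PCL5 and the repair factor LIF1 lay at -1.07, -1.15 and -2.01. Each call given with a value in this paragraph and the one above was lost when the first or the second WT CHX library was left out. In this paragraph all but those of CAF40, STM1, EGT2 and RSB1 were also lost when any upf1 library was left out. The same held for RPC31, RPS28B and RPS6A in the paragraph above.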
